A study of Mus musculus with 13 samples.

Results

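The regions described here were the stretches of open chromatin around 10 mouse genes that encode transcription factors of the nuclear factor I family (Nfia, Nfib, Nfic and Nfix), the teashirt zinc finger family (Tshz1, Tshz2 and Tshz3) and the zinc finger homeobox group (Zfhx3, Zfhx4 and Zeb2). A region was taken when its strongest summit, the point of highest signal, lay within 100 kb of the body of one of these genes in the GENCODE M21 annotation of mm10. Over 13 ATAC-seq libraries, 4730 of 1356943 unique regions met this rule. In the 12 libraries that were compared, between 290 and 410 regions per library did so, of which 158 to 183 ranked among the 50000 strongest of their library.

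Nuclear factor I proteins bind DNA as dimers to a palindrome made of TTGGC and its reverse complement, and a single TTGGC is also bound. In the embryonic forebrain they are known for the switch of radial glia from neuron to astrocyte production. Teashirt proteins are zinc finger factors that mostly repress, whereas Zfhx3 and Zfhx4 are very large proteins with many zinc fingers and several homeodomains that are expressed in differentiating neurons. Zeb2 represses through a pair of zinc finger clusters that bind E-boxes such as CACCTG, and it acts in forebrain neurons, neural crest and mesenchyme.

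ATAC-seq uses a transposase to cut and tag accessible DNA. Here, 50000 cells per library were taken from distal forelimb (DFL), proximal forelimb (PFL) or forebrain (FB) of E12.5 mouse embryos of strain B6CBAF1, with no treatment. Each tissue was sampled in wild type (wt) and in the mutant line II1TDOM 542 (allele 542), in which a single copy of a transgene with the limb enhancer II1, the HBB promoter and LacZ sits in the T-DOM, the regulatory domain on the telomeric side of the HoxD cluster. The 542 embryos were homozygous and came from crosses of heterozygous adults. Every one of the 6 groups had 2 libraries, each from a pool of several embryos of different litters, and allele 542 was 1 founder line. An additional wt DFL library from an earlier study entered no comparison unless named.

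The 12 libraries held 85104 to 118339 regions. The tag numbers recovered from the deposited values ran from 37.5 to 70.7 M (megatags) per library, and wt exceeded allele 542 in tags within DFL (44.0 to 54.5 M against 40.2 to 41.4 M) and PFL (48.8 to 52.7 M against 37.5 to 37.9 M), while the ranges met in FB (56.6 to 70.7 M against 51.4 to 64.5 M). Because lists of unequal length differ in reach, regions were compared among the 50000 strongest of each library. In a check of the dissections, 3 of 5 limb mesenchyme genes (Prrx1, Tbx5 and Twist2) and 3 of 3 distal limb genes (Hoxa13, Hoxd13 and Hoxd12) had fewer strong regions within 100 kb in every FB library than in any limb library, and the forebrain genes Sox1 (10 to 13 regions in FB, 2 to 6 in DFL and 1 to 3 in PFL) and Neurog2 (11 to 14, 8 or 9 and 4 to 6) had more. Pax6 (8 to 12, 9 or 10 and 4 to 7) and Neurog2 had more in every DFL than in any PFL library, and Six3, Emx2 and Dlx1 overlapped in both comparisons. Summed over the 5 mesenchyme genes, FB libraries held 29 to 34 regions and limb libraries 46 to 53. Of the proximal limb genes, Meis1 and Meis2 had more regions in FB than in limb and none of the 3 separated PFL from DFL. The 4 muscle genes summed to 27 to 34 regions in PFL, 18 to 22 in DFL and 18 to 21 in FB, and Myod1 and Pax3 had more in every PFL than in any DFL library. The 3 distal genes, of which Hoxd12 and Hoxd13 share most of their window, summed to 35 to 45 in DFL, 31 to 36 in PFL and 10 to 19 in FB, and the 3 proximal genes to 24 to 26, 22 to 28 and 35 to 42. Sums overlapped between tissues for blood (48 to 52 in DFL, 49 to 54 in PFL and 48 to 53 in FB), endothelium (24 to 29, 24 to 28 and 22 to 26) and nerve sheath genes (26 to 29, 22 to 26 and 24 to 30). The 4 ectoderm genes summed to 20 to 22 in FB, above the 13 to 19 of DFL and overlapping the 14 to 21 of PFL. In bulk tissue, more cells with an open region and a more open region per cell cannot be told apart.

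When the 50000 strongest regions of the 12 libraries were merged into 110788 consensus regions, 373 lay around the 10 genes. Nfib had 69, Zfhx3 64, Nfia 52, Nfix 34, Tshz2 and Zfhx4 32 each, Nfic and Zeb2 30 each, Tshz1 21 and Tshz3 9. Most of them, 217, were in introns of the gene itself, 24 were at one of its annotated starts (summit within 1 kb), 29 were at starts of other coding genes, 13 in exons, 24 in introns of other genes and 66 between genes. The windows of Nfic and Nfix were crowded, with 17 and 13 other coding genes, and held 11 and 14 of the 29 regions at other starts. By contrast, Tshz3, Zfhx3 and Zfhx4 had no other coding gene in their windows. In mm10, Nfia spans chr4:97772734-98118874 and Nfib chr4:82290173-82705750 on the opposite strand. Nfic lies at chr10:81396186-81455635, Nfix at chr8:84699876-84800344 and Zfhx3 at chr8:107942644-108961630. Tshz2 lies at chr2:169633013-170071816 and Tshz3 at chr7:36698118-36773553, and Zfhx4 and Zeb2 at chr3:5218526-5415857 and chr2:44983632-45117395.

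The sequence under the summit is shown for the strongest region of each tissue pattern, by mean fold over the libraries of that pattern. Fold is the deposited height of the summit over the local background of its own library. Each line gives 200 bases of the plus strand of GRCm38, 5′ to 3′, centred on the summit, with capitals for any match on either strand to the letters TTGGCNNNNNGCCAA (nuclear factor I palindrome), TTGGCA (single site), CACCTG (ZEB E-box), TAATTA (homeodomain), CAATAAA (HOX13-like), CAGATG (proneural E-box) or ACAAAG (SOX). The single site can overlap the palindrome by its first letters. The last line shows the only window, among the 373, around these genes that held the palindrome.
Zeb2, forebrain without limb, chr2:45158508-45158707: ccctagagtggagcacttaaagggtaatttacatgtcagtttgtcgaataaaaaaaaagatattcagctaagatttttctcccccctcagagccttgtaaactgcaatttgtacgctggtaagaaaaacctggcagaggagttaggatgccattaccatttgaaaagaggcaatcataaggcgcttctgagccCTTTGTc
Nfib, limb without forebrain, chr4:82634485-82634684: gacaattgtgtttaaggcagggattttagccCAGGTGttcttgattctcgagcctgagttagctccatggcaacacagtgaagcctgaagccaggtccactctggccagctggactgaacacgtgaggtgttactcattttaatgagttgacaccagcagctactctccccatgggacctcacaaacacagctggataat
Zfhx3, DFL alone, chr8:108089803-108090002: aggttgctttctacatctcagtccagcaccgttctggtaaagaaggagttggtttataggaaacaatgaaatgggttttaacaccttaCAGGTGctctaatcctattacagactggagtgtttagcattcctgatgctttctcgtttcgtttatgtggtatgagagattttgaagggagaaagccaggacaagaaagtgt
Zfhx4, PFL alone, chr3:5424787-5424986: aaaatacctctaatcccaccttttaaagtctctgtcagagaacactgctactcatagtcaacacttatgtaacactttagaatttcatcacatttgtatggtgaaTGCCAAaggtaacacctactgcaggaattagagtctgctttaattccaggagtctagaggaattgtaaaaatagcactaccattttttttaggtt
Zfhx3, limb without forebrain, with the palindrome, chr8:108672049-108672248: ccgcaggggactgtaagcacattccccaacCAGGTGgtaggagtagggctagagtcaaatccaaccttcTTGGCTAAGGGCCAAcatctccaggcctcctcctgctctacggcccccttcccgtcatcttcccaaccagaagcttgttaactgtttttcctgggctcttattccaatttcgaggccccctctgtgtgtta

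The first question was which of these regions were open in some tissues and not in others. Among the strongest regions, 42 of the 373 (11.3%) were present in all 4 FB libraries and in no limb library, where 8.76% of all consensus regions were. The reverse, presence in all 8 limb libraries and no FB library, held for 15 (4.02%), against 4.81% of all. Between the limb segments, 12 (3.22%) were in every DFL and no PFL library, against 2.53% of all, and 5 (1.34%) in every PFL and no DFL library, against 2.03%. A total of 60 (16.1%) were in all 12 libraries, against 17.4% of all. Hence the shares around the 10 genes were near those of the genome in each class, and what follows describes the regions and draws no excess from their counts.

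**Figure D1:**
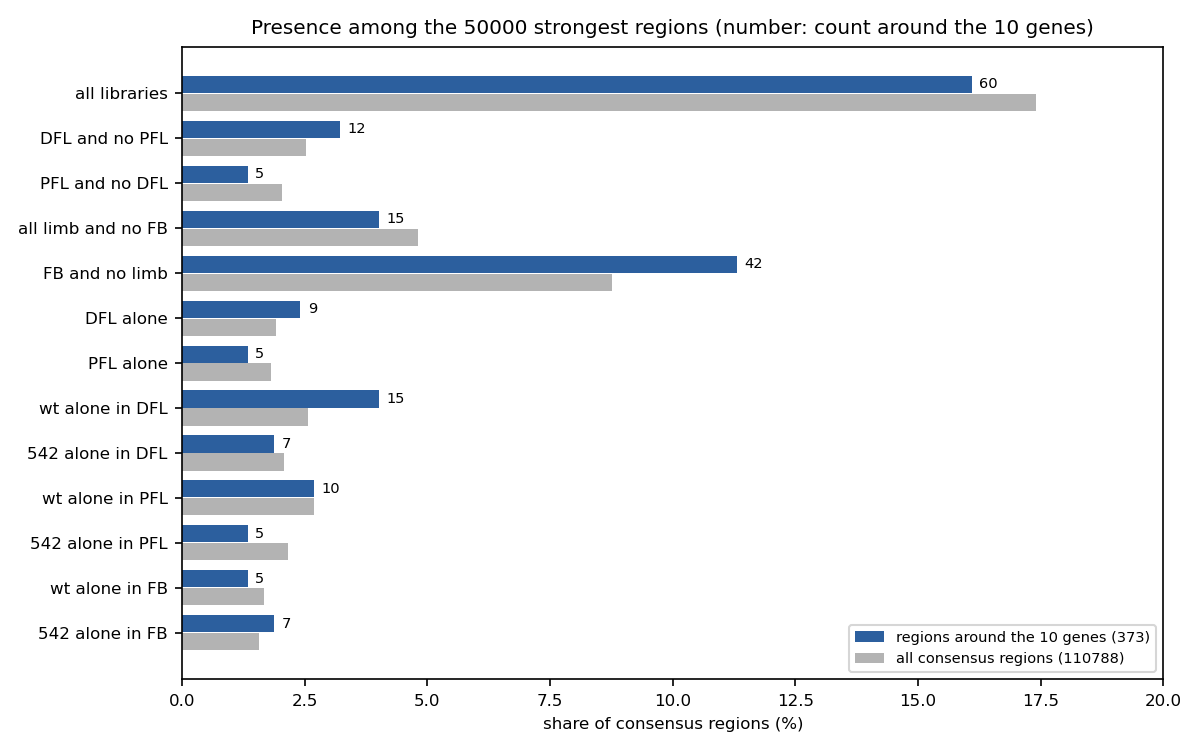
Share of consensus regions (horizontal axis, %) in each presence class (vertical axis) for the 373 regions around the 10 genes (blue, with their count) and for all 110788 regions (grey). The largest tissue class around the 10 genes was FB and no limb, with 42 regions.

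The 42 forebrain regions were spread unevenly. Nfia held 10, Nfib 9, Zfhx3 8, Zfhx4 6, Tshz2 5, Zeb2 3 and Nfic 1, and Nfix, Tshz1 and Tshz3 held none. In all, 32 were in introns of the gene itself and 3 at its annotated starts. Their mean fold over FB libraries ranged from 4.29 to 12.3 with a median of 7.18. In 25 of the 42 no limb library had any deposited region, and in the other 17 at least 1 limb library had one below its 50000 strongest.

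The strongest was the Zeb2 region shown above, 41.2 kb upstream of the gene, in an intron of the noncoding gene Gm28643. Its fold was 13.9 and 13.7 in wt FB, 9.65 and 11.9 in 542 FB, 2.58 in 542 DFL replicate 1 and 3.32 in wt PFL replicate 2, with no deposited region in the other 6 limb libraries. All FB values were above both limb values, which largely follows from how the region was chosen.

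The sole such region in the Nfic window lay at the start of Celf5, an RNA-binding protein gene of neurons, with 11.9 and 12.7 in wt FB and 11.7 and 10.3 in 542 FB and nothing in limb. In the Nfia window the strongest stood 96.5 kb upstream, with 9.95 and 10.6 in wt FB and 10.2 and 10.7 in 542 FB, while 6 limb libraries had 3.06 to 4.54. Zfhx4 had one in an intron 108 kb into the gene, with 9.94 in both wt FB libraries and 11.6 and 10.3 in 542 FB, and Tshz2 one 33.6 kb into the gene, with 10.4 and 9.49 in wt FB and 9.25 and 9.94 in 542 FB. Neither had a deposited region in any limb library. The strongest of Nfib, 258 kb into the gene, averaged 8.57 ± 1.57 (SD, n = 4) in FB, and 6 limb libraries had it at 2.41 to 3.96. That of Zfhx3, 44.2 kb into the gene, averaged 8.67 ± 1.02 (SD, n = 4) in FB, and the 4 DFL libraries had it at 3.59 to 4.54.

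The 15 limb regions outside the strongest of every FB library belonged to Nfib, Tshz2 and Zfhx3 (3 each), Nfia and Zfhx4 (2 each), Nfix and Tshz1 (1 each). In 9 of the 15 no FB library had any deposited region, and in the other 6 at least 1 had a weaker one. Their mean fold over limb libraries ran from 4.47 to 11.6. The strongest was the intronic Nfib region shown above, 71.2 kb into the gene. Its fold was 13.3 and 13.7 in wt DFL, 14.6 and 13.4 in 542 DFL, 7.88 and 9.03 in wt PFL and 11.3 and 9.44 in 542 PFL. Only 1 FB library had a region there, at 3.05, and all 4 DFL values were above the 4 PFL values. The region in an exon of Tshz2, 438 kb into the gene, stood at 6.48 to 11.5 in limb and at 2.10 in the 1 FB library that had it. The Zfhx3 region with the nuclear factor I palindrome, 730 kb into the gene, had 10.2 and 11.2 in wt DFL, 10.2 and 11.0 in 542 DFL, 6.67 and 7.35 in wt PFL and 7.61 and 6.25 in 542 PFL, with no FB library. Here also the DFL values lay above the PFL values. In the Tshz1 window the limb region was in an intron of the neighbouring gene Zfp407, with 4.96 to 7.18 in limb and none in FB.

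The distinction between limb segments rested on few regions. Zfhx3 and Nfib held 4 each of the 12 DFL regions, Zfhx4 2, and Tshz1 and Zeb2 1 each. Of all 12, 9 were outside the strongest of every FB library as well (DFL alone, against 1.92% of all consensus regions), and of the 5 PFL regions all 5 were (PFL alone, against 1.81%). In 11 of the 12 at least 1 PFL library had a weaker deposited region. The Zfhx3 region shown above, 147 kb into the gene, stood at 9.67 and 11.5 in wt DFL and 6.45 and 9.06 in 542 DFL, with 2.41 in wt PFL replicate 2 and nothing in the other PFL or the FB libraries. The Nfib region 386 kb into the gene averaged 6.60 ± 1.03 (SD, n = 4) in DFL and was deposited at 3.56 in 1 PFL library. The intronic Tshz1 region, 34.5 kb into the gene, averaged 6.60 ± 0.795 (SD, n = 4) in DFL, with no PFL library and 3.05 in 542 FB replicate 2. Those of Zfhx4 and Zeb2 were weaker, at 5.55 ± 0.679 and 4.56 ± 0.377 (SD, n = 4).

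Among the PFL regions, that of Zfhx4 shown above lay 206 kb from the gene's 5′ end, past its 3′ end. Its fold was 9.56 and 9.07 in wt PFL and 8.70 and 9.21 in 542 PFL, and 4.10 and 3.33 in wt DFL. The 542 DFL and the FB libraries had no region there. An Nfia intron held one 113 kb into the gene with 8.14 and 8.23 in wt PFL and 10.7 and 8.59 in 542 PFL and none in the other 8 libraries. A Zfhx3 intron held one 252 kb into the gene, at 8.84 ± 1.11 (SD, n = 4), with 3.33 in wt DFL replicate 2. The earlier wt DFL library had the Zfhx3 region at 5.25 and the Nfia region at 2.03.

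Zfhx3, whose gene body spans 1020 kb, showed the tissues in separate stretches. Between 300 and 600 kb from its 5′ end lay 10 consensus regions, of which the FB libraries had 9 or 10 deposited, the DFL libraries 1 to 3 and the PFL libraries 0 to 2. The next stretch, 600 to 740 kb, had 6 regions, of which every limb library had 5 or 6 and no FB library any. Between 60 and 160 kb, FB libraries had 1 of 9 regions, DFL libraries 4 to 7 and PFL libraries 4 to 6. Past 740 kb, the tissues overlapped, with 16 to 18 of 23 regions in FB, 16 to 20 in DFL and 11 to 16 in PFL. The ends of these stretches were set after the map was seen and no test was made on them.

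**Figure D2:**
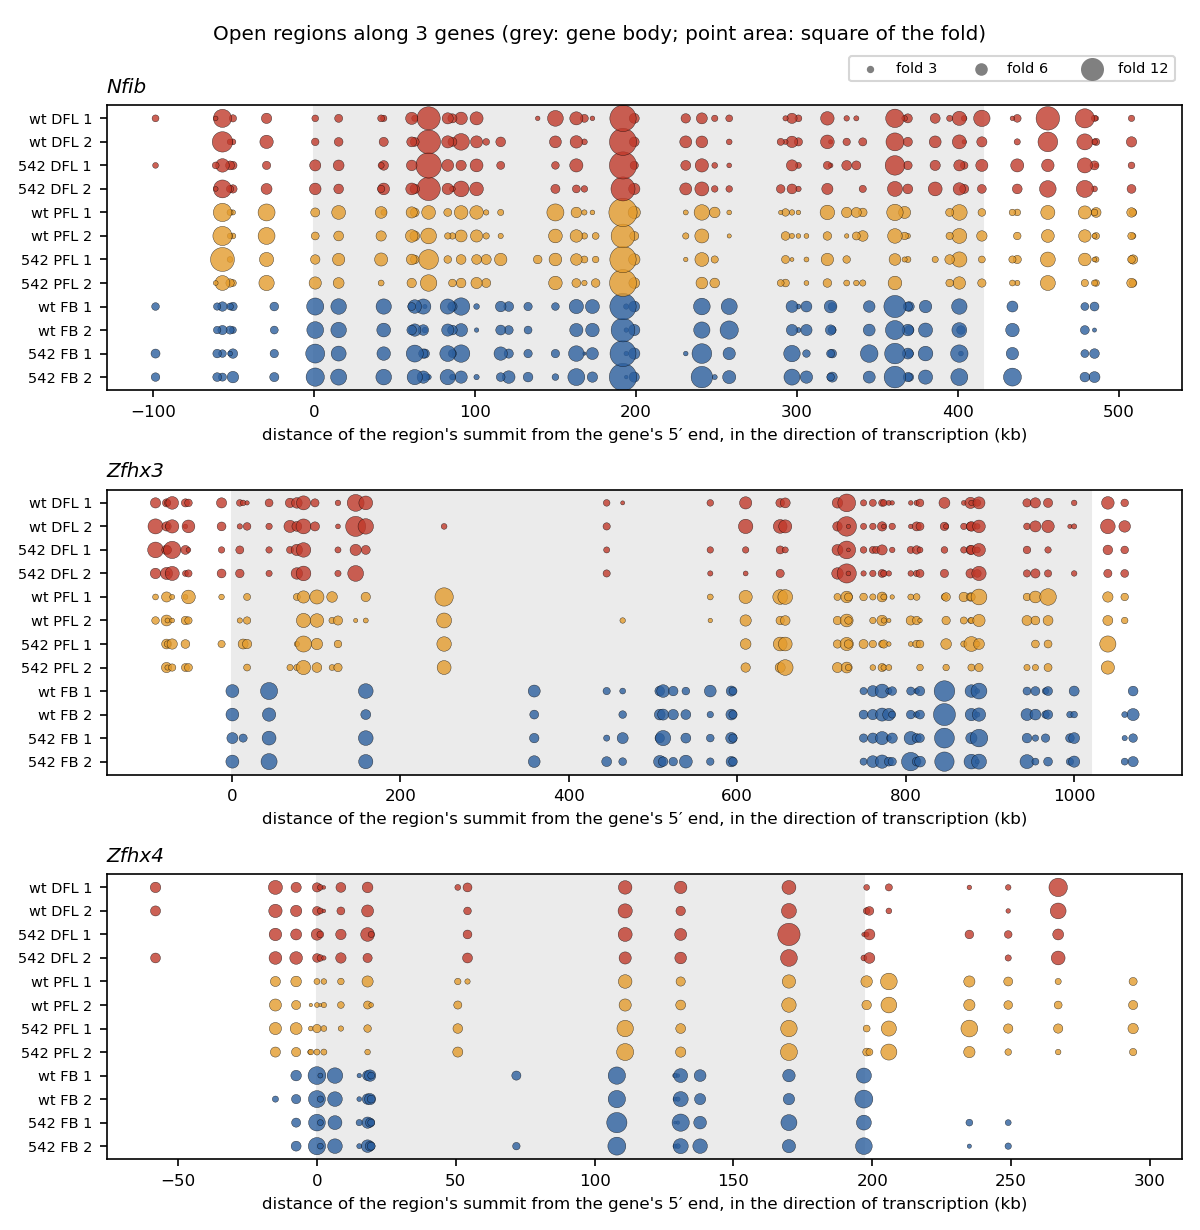
Position of each consensus region along Nfib, Zfhx3 and Zfhx4 (horizontal axis, kb from the gene's 5′ end) in each of the 12 libraries (rows; red DFL, orange PFL, blue FB) where it was deposited, with point area as the square of its fold and the gene body in grey. In Zfhx3, the 300 to 600 kb stretch held 9 or 10 regions in FB and at most 3 in limb, and the 600 to 740 kb stretch none in FB.

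The annotated starts of the genes were then compared. With the strongest deposited region within 1 kb of any start, 9 of the 10 genes had one in all 12 libraries. Tshz3 lacked one in wt PFL replicate 2 and had 4.86 to 6.01 in the other 11. Fold was highest for Nfia, at 12.6 ± 1.02 in DFL, 12.9 ± 1.42 in PFL and 12.3 ± 0.763 in FB (SD, n = 4 each), which placed it at percentiles 94.7 to 97.8 of each library's regions. It was lower for Nfic, at 3.72 to 4.78, 3.15 to 5.15 and 4.26 to 4.94. Tshz1 stood at 4.62 to 6.48, 4.86 to 6.23 and 5.19 to 5.92, and Tshz2 at 4.11 to 5.93, 5.87 to 10.4 and 5.87 to 9.14. For these 4 genes the FB range met that of the limb.

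Starts of the same gene differed in their tissues. The 2 starts with no deposited region in any limb library are shown together with the pair of Nfib starts, in the same layout.
Zfhx3 start 0.659 kb into the gene, chr8:107943204-107943403: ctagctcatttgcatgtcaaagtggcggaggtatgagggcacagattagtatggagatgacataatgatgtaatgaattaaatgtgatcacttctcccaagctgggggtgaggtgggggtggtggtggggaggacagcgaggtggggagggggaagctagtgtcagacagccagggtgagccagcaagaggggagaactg
Nfia start 108 kb into the gene, chr4:97880423-97880622: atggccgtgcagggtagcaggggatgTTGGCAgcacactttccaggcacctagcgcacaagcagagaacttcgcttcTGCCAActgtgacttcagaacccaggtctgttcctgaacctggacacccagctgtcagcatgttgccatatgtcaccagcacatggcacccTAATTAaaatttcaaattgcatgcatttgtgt
Nfib start 0.746 kb into the gene, chr4:82704905-82705104: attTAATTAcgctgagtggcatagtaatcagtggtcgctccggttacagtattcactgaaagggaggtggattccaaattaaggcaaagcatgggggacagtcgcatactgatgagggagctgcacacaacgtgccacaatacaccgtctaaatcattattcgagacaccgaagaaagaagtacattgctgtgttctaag
Nfib start 199 kb into the gene, chr4:82506408-82506607: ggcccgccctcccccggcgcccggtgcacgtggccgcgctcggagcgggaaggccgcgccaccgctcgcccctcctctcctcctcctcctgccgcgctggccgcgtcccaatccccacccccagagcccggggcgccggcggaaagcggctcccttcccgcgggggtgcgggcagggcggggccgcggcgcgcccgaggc

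The most upstream Zfhx3 start had a fold of 7.42 and 7.37 in wt FB and 6.33 and 7.47 in 542 FB, and no limb library, the earlier one included, had a region there. The 2 downstream Zfhx3 starts, 761 and 772 kb into the gene, were deposited in all 12 libraries. At the first of them FB had 5.86 to 6.76 and limb 3.29 to 4.24, a log2 difference of 0.54 ± 0.11 (SE), and at the second FB had 7.50 to 7.98 and limb 4.01 to 6.02, a log2 difference of 0.45 ± 0.13 (SE). Both passed limma's moderated test over the 28267 regions deposited in all 12 libraries, with adjusted p of 0.00162 and 0.0139.

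The Nfia start 108 kb into the gene had 7.47 and 7.38 in wt FB, 5.45 and 5.54 in 542 FB and no region in limb. A further Nfia start, 138 kb into the gene, had 4.30 to 5.61 in FB and only 2.73 and 3.17 in the wt PFL libraries. The Nfia start nearest the 5′ end stood at 11.0 to 14.2 in all tissues, and its small difference (-0.22 ± 0.07 SE, limma adjusted p = 0.0188) had the opposite sign, 0.15, on tags scaled to library size and was not called without centring (-0.05, adjusted p = 0.577).

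The Nfib start at the 5′ end had 9.83 and 9.63 in wt FB and 10.9 and 10.5 in 542 FB. In limb it had 3.86 and 4.34 in wt DFL, 6.41 and 6.69 in 542 DFL, 5.19 and 4.54 in wt PFL and 5.43 and 7.05 in 542 PFL. FB lay above all limb libraries (log2 difference 0.76 ± 0.12 SE, limma adjusted p = 0.000186), whereas the start 199 kb into the gene did not differ beyond its error (5.86 to 6.47 in FB, 4.76 to 7.05 in limb, log2 difference -0.10 ± 0.13 SE, adjusted p = 0.578). The sequence under the downstream start was 83.0% G and C, against 45.0% under the upstream summit.

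The Zfhx4 start stood at 10.2 and 9.74 in wt FB and 9.58 and 9.90 in 542 FB. In limb it had 5.30 and 5.09 in wt DFL, 6.60 and 5.00 in 542 DFL, 3.42 and 2.80 in wt PFL and 4.76 and 3.45 in 542 PFL. The 3 tissues did not overlap, and this was the largest increase in FB among the regions tested around the 10 genes, at 0.99 ± 0.13 (SE) on the log2 scale (limma adjusted p = 3.11e-05). DFL exceeded PFL by 0.56 ± 0.15 (SE, adjusted p = 0.0330). The second call was lost in 6 of the 12 fits that left out 1 library, with adjusted p up to 0.112, and those fits gave 0.46 to 0.67.

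At Nfix, the start 26.3 kb into the gene was higher in FB (5.84 to 7.44 against 3.47 to 5.54, log2 difference 0.43 ± 0.12 SE, limma adjusted p = 0.0113) and that at the 5′ end lower (3.82 to 4.42 against 3.44 to 6.70, log2 difference -0.40 ± 0.14 SE, adjusted p = 0.0335). Leaving out 1 library took the adjusted p of these to 0.0561 and 0.149. The second was not called without centring (-0.22, adjusted p = 0.193) or with quantile normalization (-0.18, adjusted p = 0.334). The Zeb2 start at the 5′ end had 5.65 to 7.28 in FB and 2.91 to 6.71 in limb, and its log2 difference of 0.40 ± 0.20 (SE) did not pass (adjusted p = 0.124).

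**Figure D3:**
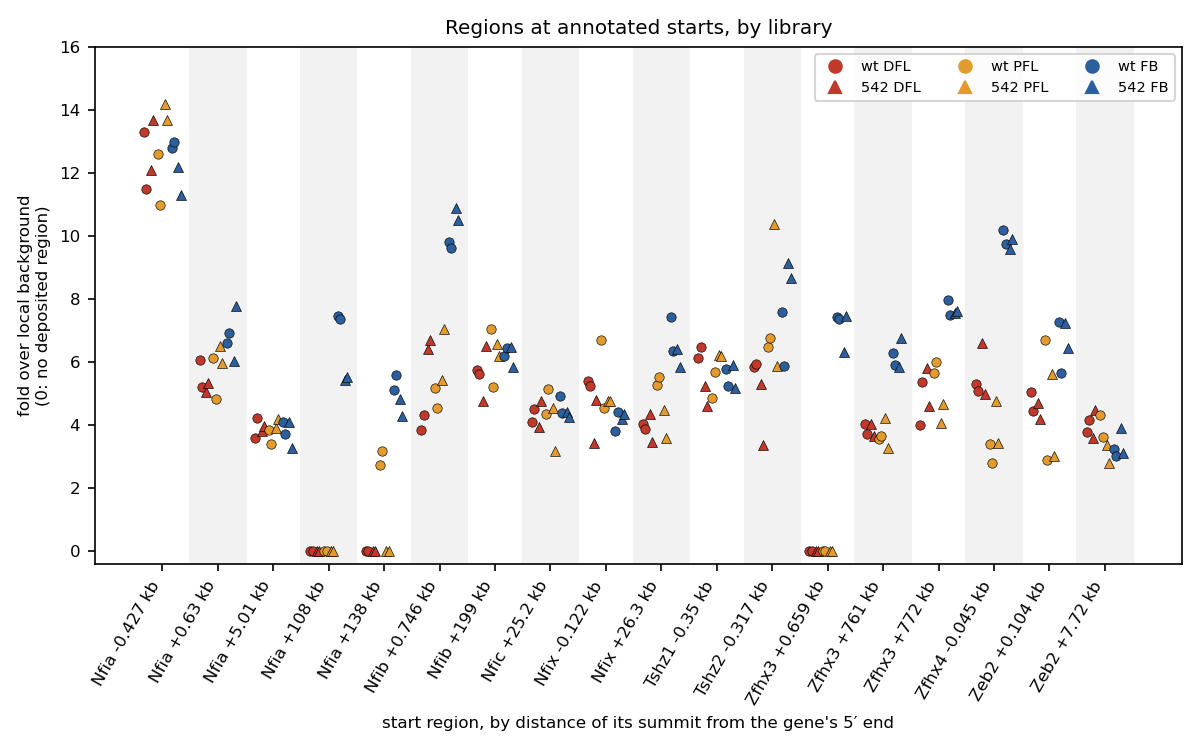
Fold over local background (vertical axis) in each of the 12 libraries at 18 regions at annotated starts (horizontal axis, gene and distance of the summit from its 5′ end), with circles for wt, triangles for allele 542 and 0 where a library had no region. The Zfhx3 start at +0.659 kb and the Nfia start at +108 kb had values in FB and in no limb library.

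The level of shared regions was tested next. Of the 373 regions, 91 were deposited in all 12 libraries, a filter that leaves out every region closed in 1 tissue. By gene, 27 were from Nfix, 16 from Nfic, 12 from Nfib, 10 from Nfia, 7 from Tshz2, 6 from Zeb2, 5 from Zfhx4, 3 each from Tshz3 and Zfhx3 and 2 from Tshz1. For each library, log2 fold was centred on its median, and limma was fitted over all 28267 such regions. Between FB and the mean of both limb segments, 22 of the 91 were higher in FB (16.1% of all regions tested were) and 24 lower (23.6% of all). Their median log2 difference was 0.02, against -0.03 over all. Without centring the split was 40 higher and 12 lower (39.3% and 13.1% of all), and the median of all regions moved to 0.145. On tags under the summit scaled to library size it was 47 higher and 16 lower of 88 tested (40.5% and 19.3% of all), with a median of 0.19 over all, so that the balance of directions depended on the scaling. Quantile normalization gave 25 and 18 (18.9% and 18.5% of all). Of the 46 called, 1 turned its direction without centring, and 8 did when scaled tags were used in place of fold. None of the regions described in the next paragraphs was among them. Leaving out 542 FB replicate 2 lowered the number called higher in FB, both around these genes and over all regions tested.

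The largest decrease was in an intron of Nfix, 57.6 kb into the gene. This region stood at 7.07 and 7.73 in wt DFL, 7.59 and 7.43 in 542 DFL, 7.18 and 7.17 in wt PFL, 8.23 and 6.25 in 542 PFL, 2.83 and 3.19 in wt FB and 2.98 and 2.83 in 542 FB. The 8 limb values were all above the 4 FB values (log2 difference -1.48 ± 0.12 SE, limma adjusted p = 3.78e-07). It was also the Nfix region counted among the 15 limb regions above. An intergenic region 56.9 kb upstream of Nfib had 7.75 to 13.7 in limb and 4.40 to 5.42 in FB (-1.25 ± 0.12 SE, adjusted p = 2.21e-06). Nfia had a pair of intronic regions lower in FB, 96.3 kb (-0.95 ± 0.12 SE, adjusted p = 2.41e-05) and 232 kb (-0.79 ± 0.09 SE, adjusted p = 8.05e-06) into the gene. At the second of them limb libraries had 9.30 to 14.5 and FB libraries 7.14 to 8.35.

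Among the increases in FB with the smallest adjusted p, next to that of Zfhx4, was 1 at the start of a neighbouring gene. The start of Dohh, a deoxyhypusine hydroxylase gene in the Nfic window, had 20.5 to 21.7 in FB and 11.6 to 16.2 in limb (0.48 ± 0.07 SE, limma adjusted p = 0.000107).

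Between DFL and PFL, 4 of the 91 were higher in DFL (3.88% of all) and 5 lower (3.31% of all). Without centring these were 5 and 0 (5.15% and 1.72% of all). Fits without a single DFL or PFL library left 1 library in a group. Most of these fits called fewer regions in both directions, around these genes and over all regions tested. The largest difference was in an intron of Tshz3, 9.33 kb into the gene. Its 200 bases under the summit, with a proneural E-box in capitals, were:
Tshz3, chr7:36707351-36707550: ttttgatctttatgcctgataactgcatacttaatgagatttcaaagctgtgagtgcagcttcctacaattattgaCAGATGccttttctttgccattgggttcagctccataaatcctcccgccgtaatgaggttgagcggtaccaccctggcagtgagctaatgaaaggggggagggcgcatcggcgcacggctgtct
It stood at 5.49 and 5.78 in wt DFL, 5.33 and 3.85 in 542 DFL, 2.71 and 3.60 in wt PFL, 2.45 and 2.40 in 542 PFL and 6.08 to 7.48 in FB. The tissues did not overlap. DFL exceeded PFL by 0.81 ± 0.16 (SE) on the log2 scale (limma adjusted p = 0.00731), and FB exceeded the limb by 0.74 ± 0.14 (SE, adjusted p = 0.000714). This was the sole one of the 9 calls kept in all 12 fits that left out 1 library.

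The other DFL increases next to that of the Zfhx4 start included a Tshz2 intron 297 kb into the gene, with 6.01, 10.9, 6.27 and 6.04 in DFL and 3.70 to 4.59 in PFL (0.68 ± 0.18 SE, limma adjusted p = 0.0322). Regions lower in DFL were in an exon of Gna15 in the Nfic window (4.59 to 5.18 in DFL, 5.11 to 8.04 in PFL, -0.52 ± 0.13 SE, adjusted p = 0.0238) and the pair of Nfia introns above (-0.55 ± 0.14 SE, adjusted p = 0.0270, and -0.39 ± 0.10 SE, adjusted p = 0.0338). These 4 calls were each lost in 5 or more of the fits without 1 library. The muscle genes Myod1 and Pax3 had more regions in PFL than in DFL, and the forebrain genes Pax6 and Neurog2 fewer. The part of cell composition in these differences was not tested.

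**Figure D4:**
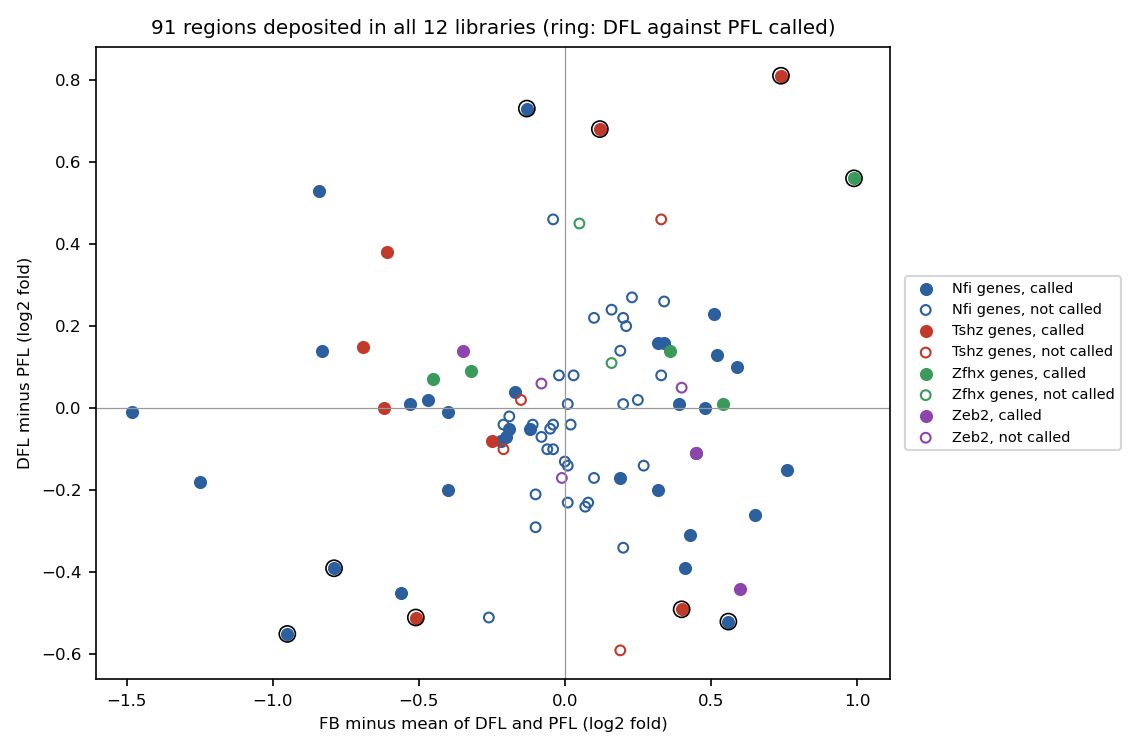
Log2 difference between FB and limb (horizontal axis) and between DFL and PFL (vertical axis) for the 91 regions deposited in all 12 libraries, with filled points where either contrast was called, rings where DFL against PFL was called and colours for the gene families. The Zfhx4 start and the Tshz3 intron lie at the upper right, and the Nfix intron is at the far left.

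The number of strong regions around a whole gene was compared over all 21938 protein-coding genes. For Tshz1, the FB libraries had 2, 4, 4 and 2 regions among their 50000 strongest, the DFL libraries 10, 8, 6 and 9 and the PFL libraries 7, 7, 6 and 5. It was the only one of the 10 genes whose FB and limb counts did not overlap (FB below limb, 6.81% of all genes; FB above limb, 8.07%, with none of the 10). The mean difference of -4.25 regions had p = 0.00404 in an exact two-sided permutation test, the smallest that 495 assignments allow, without adjustment. Counted over all deposited regions, however, Tshz1 had 14 to 21 in FB and 10 to 27 in limb, and the groups overlapped, as they also did with the 20000 strongest or in the gene body alone. The strongest Tshz1 start had a log2 difference of -0.21 ± 0.12 (SE) in the same direction, which did not pass (limma adjusted p = 0.187).

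Some genes had more regions in FB on average with overlapping counts. Tshz3 had 6, 7, 4 and 5 in FB and 2 to 4 in limb (mean difference 2.12, exact permutation p = 0.0202 without adjustment). Nfia had 25 to 29 against 19 to 26 (3.62, exact p = 0.0242), Zeb2 12 to 15 against 8 to 14 (3.12, exact p = 0.0283) and Nfib 28 to 34 against 26 to 32 (exact p = 0.0485). Without 542 FB replicate 1 the Tshz3 counts no longer overlapped, nor did those of Nfia without wt DFL replicate 1 or of Nfib without wt FB replicate 1. In the gene body alone, Nfib had 26 to 30 regions in FB and 19 to 24 in limb, and Zfhx4 12 or 13 against 6 to 9. The share of all coding genes is not given for the gene body alone or with 1 library left out. No excess is drawn from these counts. For Nfic, Nfix, Tshz2, Zfhx3 and Zfhx4 the exact p ran from 0.137 to 0.796. Per 100 kb of window, the mean FB counts ranged from 1.09 for Tshz1 to 8.65 for Nfix.

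Between DFL and PFL none of the 10 genes separated (DFL above PFL, 2.79% of all genes; DFL below PFL, 3.11%), and the smallest exact p was 0.143, for Tshz1, where 70 assignments allow 0.0286. Of 8 related zinc finger and homeobox genes (Zeb1, Zfhx2, Adnp, Adnp2, Zhx1, Zhx2, Zhx3 and Homez), Zfhx2 (16 to 20 in FB, 9 to 14 in limb) and Zhx2 (19 to 23 against 9 to 13) were above limb in every FB library. Of 4 corepressor genes (Ctbp1, Ctbp2, Hdac1 and Hdac2), which encode partners of such repressors, Ctbp2 was (8 to 10 against 3 to 6), and Hdac2 had fewer regions in every DFL (4 or 5) than in any PFL library (6 or 7). Of 6 radial glia and astrocyte genes tied to nuclear factor I (Sox9, Fabp7, Slc1a3, Gfap, Aqp4 and Apcdd1), Sox9 (7 to 9 against 2 to 4) and Fabp7 (7 or 8 against 4 to 6) were above limb in every FB library. Between FB and limb, the counts of the other genes in these lists overlapped. Of all coding genes, 8.07% had FB above limb and 3.11% DFL below PFL, and no excess is drawn from lists this short.

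**Figure D5:**
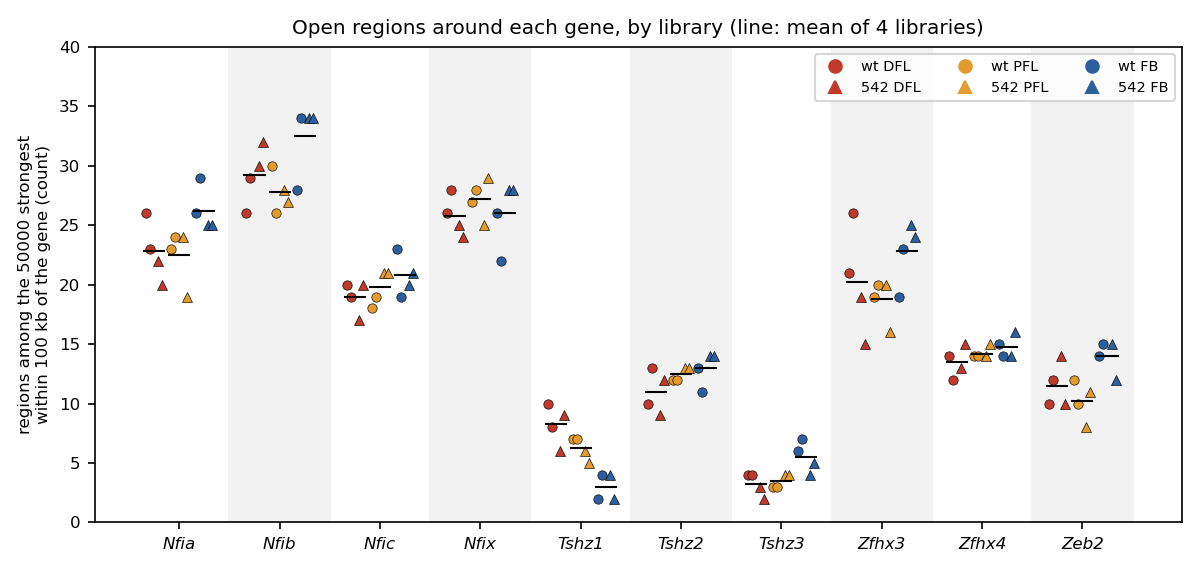
Number of regions among the 50000 strongest within 100 kb of each gene (vertical axis) in each of the 12 libraries, with circles for wt, triangles for allele 542 and a line at the mean of 4 libraries. Tshz1 had 2 to 4 regions in FB and 5 to 10 in limb.

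The last comparison asked whether allele 542 differed from wt around these genes, 2 of which, Tshz2 and Zeb2, are on the chromosome that carries the transgene. None of the 91 shared regions was called in either direction by limma (0.439% of all were higher and 0.276% lower in allele 542), and 7 higher (7.69%) and 3 lower (3.30%) had an unadjusted p under 0.05, where 10.3% and 5.79% of all regions did. The test on tags scaled to library size called 1 higher and 2 lower of 88 (1.14% and 2.27%, against 1.14% and 5.07% of all). The Nfib start at the 5′ end differed by 0.46 ± 0.11 (SE) on the log2 scale toward allele 542, which did not pass (limma adjusted p = 0.0850).

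Within single tissues, where 2 libraries faced 2, presence in both libraries of a genotype and in none of the other genotype held for few regions. In DFL, 15 regions were in wt alone (2.56% of all consensus regions) and 7 in allele 542 alone (2.07%). In PFL, 10 were in wt alone (2.68%) and 5 in allele 542 alone (2.15%). The PFL regions of wt were as frequent as in the genome. In FB, 5 were in wt alone (1.66%) and 7 in allele 542 alone (1.57%). No region was in 1 genotype alone in all 3 tissues in either direction, as held for 0.0126% (wt) and 0.0144% (allele 542) of all regions. The wt limb libraries were also the deeper ones (above), and the part of depth in these counts was not tested.

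The strongest wt regions in DFL were Zfhx3 introns 610 kb (7.03 and 8.28 in wt, 3.69 and 2.83 in allele 542) and 657 kb into the gene (5.71 and 7.53 in wt, 3.50 in 542 replicate 1), and the Nfia intron 96.3 kb into the gene (6.57 and 6.79 against 4.76 and 4.51). That Nfia region stood above in wt PFL also (10.2 and 9.22 against 6.33 and 6.25) but not apart in FB (4.59 and 3.36 against 3.87 and 3.66), and its difference over tissues did not pass (-0.34, limma adjusted p = 0.180). In allele 542 DFL the strongest were an intergenic region past the 3′ end of Nfib (7.52 and 5.62 against 4.46 and 3.58), the Nfib start at the 5′ end (above) and an intergenic region past Zfhx4 (6.27 and 6.23 against 5.03 in wt replicate 2). In PFL, wt stood highest at an intergenic region upstream of Zeb2 (5.79 and 6.03 against 4.55 and 3.99), a Zfhx3 intron (6.78 and 5.03 against 4.51 and 3.56) and an Nfia intron (5.15 and 6.63 against 4.55 in 542 replicate 1). For allele 542 in PFL these were an Nfib intron (5.74 and 5.19 against 3.06 and 3.62) and introns of Tshz2 (4.95 and 5.79 against 3.06 and 3.77, and 4.70 and 5.00 against 4.22 and 3.85). In FB, wt was above at introns of Nfia (5.25 and 7.80 against 2.28 and 2.77, and 5.60 and 7.23 against 3.29 and 3.69) and Tshz3 (5.49 and 6.24 against 3.04 and 4.77), and allele 542 at regions near Nfib (5.45 and 6.62 against 4.90 and 3.97, and 5.57 and 6.31 against 5.14 and 2.41) and in Zfhx3 (5.15 and 4.98 against 3.17 and 3.34). In each of these the other genotype had at least 1 weaker deposited region, and with 2 libraries against 2 no test was made.

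By gene, the count of strong regions was lower in all 542 than in all wt libraries of every tissue for none of the 10 genes (0.205% of all genes), and higher for none (0.406%). The difference nearest to the limit of the test was that of Nfia, with means of 25.2 regions in wt and 22.5 in allele 542 (exact permutation within tissues, p = 0.0556, where 216 assignments allow 0.00926).

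In 300 bases around each summit, the letters searched were about as common around the 10 genes as elsewhere. The single site TTGGCA was in 71 of the 373 windows (19.0%) and in 18.7% of all, the ZEB E-box in 68 (18.2%, against 18.7%), TAATTA in 58 (15.5%, against 13.9%), CAATAAA in 27 (7.24%, against 7.11%), CAGATG in 86 (23.1%, against 27.2%) and ACAAAG in 98 (26.3%, against 24.8%). The palindrome was in 1 of 373 windows and in 0.151% of all. Among the 42 forebrain regions, the single site was in 12 (28.6%) where 22.4% of all such forebrain regions held it, TAATTA in 13 (31.0%, against 32.6%) and ACAAAG in 19 (45.2%, against 35.7%), while CAGATG was in 5 (11.9%, against 28.8%). The ZEB E-box was in 5 of these 42 (11.9%) and in 1212 of all 9708 such forebrain regions, and CAATAAA was in 2 (4.76%, against 5.27%). Of the 15 limb regions, 5 held the ZEB E-box (33.3%, against 21.1%), 4 CAATAAA (26.7%, against 11.2%), 4 CAGATG (26.7%, against 37.5%), 3 ACAAAG (against 23.7%), 2 the single site (13.3%, against 19.8%) and 0 TAATTA (against 9.57%). Of the 12 regions in DFL and no PFL, 1 held CAATAAA (8.33%, against 17.7%).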

How the data were processed

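ATAC-seq libraries of the 6 groups of tissue and genotype (2 each) and 1 earlier wt DFL library were used as deposited region lists. The authors trimmed reads with cutadapt and mapped them with bowtie2 to mm10 (wt) or to the mutant genome (allele 542), kept uniquely placed concordant pairs without duplicates, and called regions with MACS2 in each library alone, without a control. Whether the mapping target moved any value was not tested, since genotype and target cannot be told apart. The deposited fold is the ratio of the summit to the local background, with 1 tag added to each. The −log10 of its p-value and of its q-value, also deposited, test the summit against that background. The deposited score, a rounded q-value, was not used.

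Positions on chromosome 2 past the insertion were shifted back by 4218 bp in the 542 lists, and regions inside the insertion were left out. The number of tags was recovered from the whole-number steps of fold and p (99.4 to 100.0% of values within 0.001). Regions were ranked by −log10 q. Consensus regions merged the 50000 strongest regions of 12 libraries, and an overlap of 1 bp counted as presence. limma 3.58.1 (R 4.3.3) was fitted to log2 fold, centred per library on the median, with 1 mean per group, a mean-variance trend and Benjamini-Hochberg adjustment over all regions tested, at 0.05. No pseudocount was used beyond the 1 tag already in the deposited fold. It was tested on simulated data. Counts per gene were compared by exact two-sided permutation over libraries, without adjustment. Scripts ran under Python 3.11.15 with numpy 2.4.6, pandas 2.3.3 and scipy 1.17.1. Promoter and summit sequences came from GRCm38.

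Replicates were pools of several embryos from different litters, so p-values measure the spread between such pools. The 10 genes, the lists and the markers were chosen with earlier results of these data known. Named were all 10 genes, the strongest region of each gene in each tissue class, the 3 regions with the smallest adjusted p per contrast and direction, and up to 3 per genotype, direction and tissue by fold. The start regions beyond the strongest, and the Zfhx3 stretches, were chosen after their values were seen. Alternatives covered list length, threshold, overlap, window, normalization, filter, a replicate block and leaving out each library. Some items are not reported here.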

Additional observations from a re-analysis of the deposited data

Results flagged for a closer look

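Of 59 sets of 4 libraries of a tissue examined, 3 held a library flagged by Dixon's ratio, the gap to the nearest value over the range. Chance flags about 1 in 20 groups of continuous values. That rate does not hold for counts with ties, where any count beside 3 equal ones is flagged. In FB, wt replicate 1 had 28 of the 50000 strongest regions around Nfib, while the other 3 libraries had 34 each. The strongest Nfib start in 542 FB replicate 2 had a fold of 10.5, while the other FB libraries had 6.20 to 6.47. In that library the start at the 5′ end ranked first, and in the others the start 199 kb into the gene did. In PFL, 542 replicate 2 had 15 regions around Zfhx4 and the other 3 libraries 14 each.

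The earlier wt DFL library, which no comparison used, had 17 of its strongest regions around Tshz2, where the 12 libraries had 9 to 14. It had 35 around Zfhx3, where the 12 libraries had 15 to 26. With 78.0 M tags it was also the deepest library, and the part of depth in these counts was not tested.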

How the results depend on the processing

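With the 20000 strongest regions per library, regions in DFL and no PFL numbered 3, in PFL and no DFL 2, in all limb and no FB 5 and in FB and no limb 9, and those in wt alone or allele 542 alone, summed over tissues, 8 each (30 and 19 with 50000). With all deposited regions, PFL and no DFL was 15, all limb and no FB 37 and wt alone 105. With a −log10 q of at least 10, wt alone was 55 and allele 542 alone 9. In gene bodies alone, PFL and no DFL was 3 and allele 542 alone 8. These lists differ in length by construction. The share of all consensus regions is not given for these settings, and the counts are not read as a result about these genes. An overlap of at least 0.5 of the consensus region, added after seeing the data, moved none of the 6 counts by over 1.5 times.

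In limma, regions higher and lower in FB were 40 and 12 without centring (39.3% and 13.1% of all), and 12 and 15 in gene bodies. No share over all regions is given for gene bodies, here or for DFL against PFL below. Without the filter on presence in all libraries, 373 regions were tested, with absent regions at a fold of 1 and no centring. There 139 (37.3%) were higher and 134 (35.9%) lower in FB, against 35.5% and 35.9% of all. On tags scaled to library size, 47 of 88 were higher (40.5% of all). DFL against PFL gave 7 higher on tags scaled to library size (8.38% of all) and 2 higher in gene bodies. It gave 0 lower without centring (1.72% of all). Without the filter it gave 51 higher and 40 lower (13.7% and 10.7%, against 14.2% and 11.2% of all). Allele 542 against wt gave 1 higher and 2 lower on tags scaled to library size (1.14% and 5.07% of all). Without the filter it gave 3 and 15 (0.804% and 4.02%, against 1.29% and 4.40% of all). The cause of these shifts was not tested, and the fit without the filter also changed the centring. Setting absent regions to a fold of 1 makes absence itself a difference. With the 20000 strongest regions, 2 genes had counts that did not overlap between FB and limb (Nfic and Zeb2). In gene bodies there were 2 (Nfib and Zfhx4), and with all deposited regions 0. Each of these genes had FB above limb. Tshz1, the only gene apart in the main comparison, with FB below limb, overlapped in all of these settings. The share of all coding genes is not given for these settings. Between DFL and PFL, 1 gene did not overlap with the 20000 strongest regions.

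Leaving out 1 library gave 12 to 14 regions in DFL and no PFL, 5 to 10 in PFL and no DFL (10 and 9 without 542 PFL replicate 1 or 2), 15 to 20 in all limb and no FB and 42 to 49 in FB and no limb. It gave 34 to 43 in wt alone and 22 to 36 in allele 542 alone (33 without 542 DFL replicate 2, 35 and 36 without 542 PFL replicate 1 or 2, and 32 without 542 FB replicate 2). Leaving out a library loosens the presence rule, so these presence counts could only stay or rise. The share of all consensus regions is not given for them. In limma it gave 14 to 25 higher and 16 to 23 lower in FB, 1 to 4 and 0 to 5 in DFL, and 0 to 1 (1 without 542 PFL replicate 1) and 0 in allele 542. Genes without overlap numbered 1 to 2 and 0 to 1 (1 without 542 DFL replicate 1). Of the FB calls, 24 of 46 were kept throughout.

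Same-numbered libraries did not deviate together (15 pairs, Pearson's r from -0.0345 to 0.0156), so the numbers do not pair them. With a replicate block, the calls were 22 higher and 22 lower in FB, 4 and 6 in DFL, and 0 and 0 in allele 542. Depth limits absent regions: one without a deposited region was not detectable at the authors' threshold.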
